A study of Homo sapiens with 6 samples.

Results

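The smooth muscle contractile genes described here are 10 genes of the actin and myosin apparatus: ACTA2, ACTG2, MYH9, MYL9, MYLK, TPM1, TPM2, CALD1, CNN1 and TAGLN. They were taken by name from the arrays, as every probe set annotated with exactly 1 gene symbol that is one of these names. Each gene had 1 such probe set, so the group holds 10 of 18404 genes and 10 of 19158 probe sets. The RNA was that of PrEC, normal epithelial cells of the prostate kept as an immortalized line, and was hybridised to 6 arrays. In 3 samples the cells carried shPKCi, a hairpin against the atypical protein kinase C called PKCλ/ι (gene PRKCI), and in 3 samples they carried the hairpin shNT. Both lines were grown in the same prostate epithelial medium and were harvested untreated, 48 hours after they had been plated. The 3 samples of a line are biological replicates per the series' design text. How many hairpins or clones stand behind each line is not given in the sources used here, and every value is from 1 parental line.

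Contractile force in smooth muscle, and in stress fibres of other cells, comes from myosin II moving along actin filaments. Phosphorylation of the regulatory light chain by myosin light chain kinase switches the motor on, while tropomyosin, caldesmon, calponin and transgelin bind along the actin filament. Many genes of the group are known targets of serum response factor (SRF), which binds the CArG box together with myocardin family cofactors and reads the state of the actin cytoskeleton. In the prostate these proteins are best known from the stromal smooth muscle, and cultured epithelial cells also make several of them.

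Values are probe set intensities after RMA on a linear scale, unless called log2. The targeted transcript, PRKCI, had intensities of 800.3, 810.2 and 753.8 in shPKCi arrays 1 to 3, against 1635, 1428 and 1843 in shNT arrays 1 to 3. One array, shNT replicate 2, differed from the rest, with an interquartile range of log2 values of 3.334, where the other 5 arrays lay between 3.459 and 3.519. By limma at an adjusted p under 0.05, 9.55% of the 18404 genes were higher in shPKCi and 8.95% were lower. The contractile genes were chosen by name with their shPKCi and shNT intensities from these same arrays already known, so their values are given as a description, with no p-value for any of them.

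ACTA2, TAGLN and MYL9 stood lower in shPKCi by 2-fold or more, MYLK, TPM1, CALD1 and TPM2 by less, and CNN1, MYH9 and ACTG2 had small differences. The groups of TPM1, CNN1, MYH9 and ACTG2 overlapped. Differences of mean log2 intensity ran from -2.15 for ACTA2 to 0.24 for ACTG2, with a median of -0.39, against a median of -0.02 over all genes. The sign was negative for 9 of the 10 genes. At the cut used for all genes, 5 of the 10 counted as lower, beside 8.95% of all genes. The genes were chosen on this contrast, so that count describes the choice and is no test of them. In the fits that each left out 1 array, it was 3 without shPKCi replicate 1 or shPKCi replicate 2, and 6 without shNT replicate 2. The number of all genes called lower moved the same way. It was 1648 with all arrays, 1057 and 1048 without shPKCi replicates 1 and 2, and 1959 without shNT replicate 2. All 3 shPKCi arrays lay below all 3 shNT arrays for 6 of the 10 probe sets and above them for 0. Over all probe sets with 1 symbol the same held for 17.5% and 17.8%, together 35.3%. Without shNT replicate 2 the contractile counts were 7 and 1, beside 23.0% and 24.6% of all probe sets. The plot of intensities by array shows every value.

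**Figure D1:**
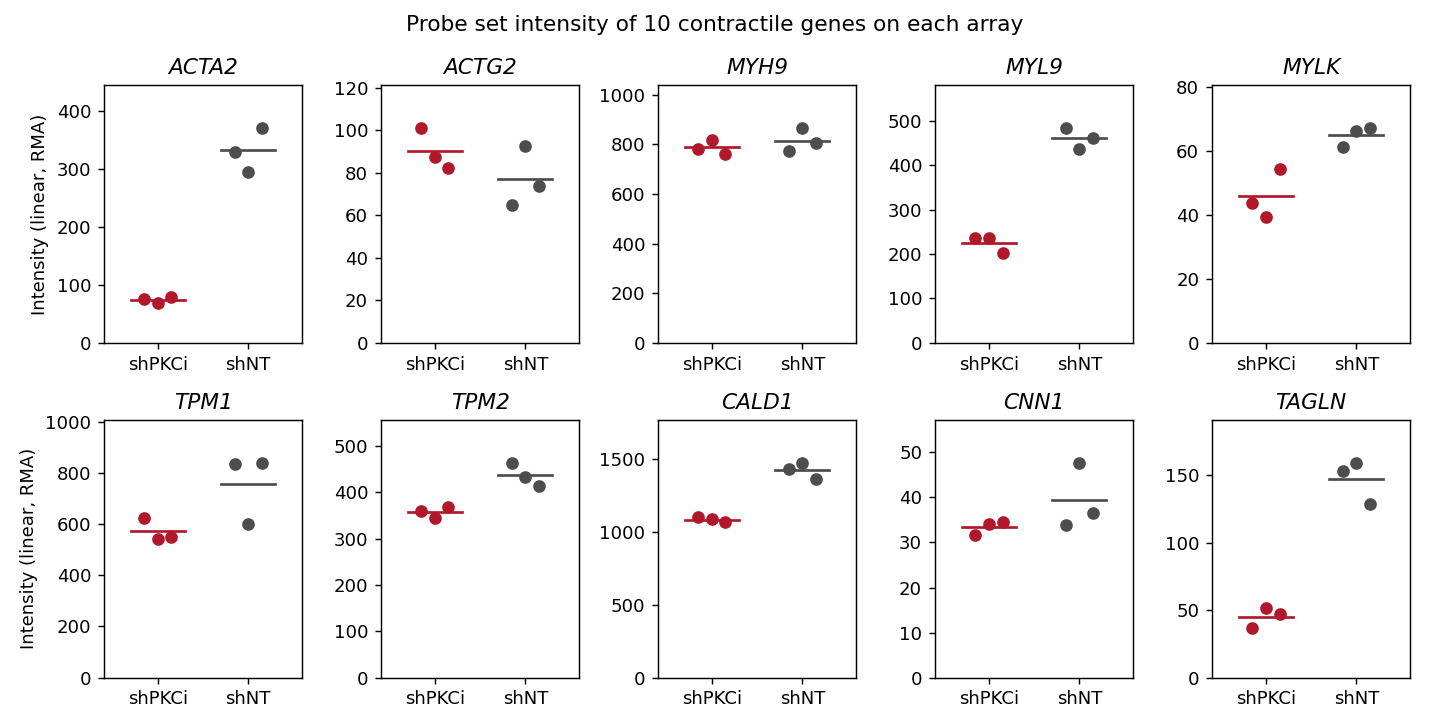
Linear probe set intensity (vertical axis, from 0) of the 10 contractile genes on each array, with shPKCi left and shNT right. Points are arrays in replicate order and lines are group means. ACTA2 lies between 68.57 and 79.07 in shPKCi and between 294.8 and 370.3 in shNT, while the groups of ACTG2, MYH9, TPM1 and CNN1 overlap.

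The windows before the transcript starts are shown first for 3 genes that hold a CArG box. ACTA2 and MYLK were lower in shPKCi, and the groups of ACTG2 overlapped. Promoter windows of 300 bases from RefSeq (GRCh38.p14), 250 before to 50 after an annotated start, matched 8 of the 10 genes and gave 13 windows. TAGLN and MYL9 had no entry. The CArG box was searched by its consensus on both strands, exactly and with 1 mismatch allowed in its core of 6 bases. An exact box was in 2 of the 13 windows, 1 each of ACTG2 and MYLK, and in 1.29% of all 35116 windows. With the mismatch allowed it was in 4 of the 13, of ACTA2, ACTG2, MYLK and CALD1, and in 8.13% of all windows. The box of CALD1, from -26 to -17 relative to a start, is not printed below. The stretches below run from base -130 to base -31 relative to the start, 5′ to 3′ on the strand of the gene, with the boxes in capitals. ACTA2 is read from the minus strand at chr10:88952804-88952903, MYLK from the minus strand at chr3:123620579-123620678 and ACTG2 from the plus strand at chr2:73892878-73892977.
ACTA2: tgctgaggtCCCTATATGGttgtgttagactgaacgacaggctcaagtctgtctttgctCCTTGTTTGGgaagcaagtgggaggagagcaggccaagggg
MYLK: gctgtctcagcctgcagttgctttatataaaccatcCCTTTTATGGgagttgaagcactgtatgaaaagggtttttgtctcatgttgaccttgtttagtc
ACTG2: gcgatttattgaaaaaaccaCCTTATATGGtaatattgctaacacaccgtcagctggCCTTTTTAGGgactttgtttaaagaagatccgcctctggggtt
ACTA2 has 2 boxes, each with 1 core mismatch, from -121 to -112 and from -71 to -62. ACTG2 also has 2, both exact, from -110 to -101 and from -73 to -64, and MYLK has 1 exact box from -94 to -85. The boxes are matches of letters and not measured binding sites. MYLK had 1 window, and which MYLK transcript begins at its start, one for the kinase or another, was not examined.

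The 2 smooth muscle actins differed in how they stood between the lines. ACTA2, which encodes alpha smooth muscle actin, had intensities of 76.34, 68.57 and 79.07 in shPKCi arrays 1 to 3, against 329.2, 294.8 and 370.3 in shNT arrays 1 to 3. The highest shPKCi value lay far below the lowest shNT value, with a gap of 1.899 log2 units. Its mean was 74.66 ± 5.45 in shPKCi and 331.4 ± 37.8 in shNT (SD, n = 3 each), or 4.43-fold lower from mean log2 values, a log2 difference of -2.15 (SE 0.11). Without shNT replicate 2 the difference was -2.23. ACTG2, which encodes gamma smooth muscle actin and whose window carries the exact boxes printed above, had 101.1, 87.27 and 82.05 in shPKCi, against 64.78, 92.65 and 73.97 in shNT. These groups overlap, because shNT replicate 2 is above 2 of the shPKCi arrays. The log2 difference of ACTG2 was 0.24 (SE 0.14), and without that shNT array it was 0.38 with no overlap left. Actin genes are close in coding sequence, and how far the probe sets of one bind transcripts of another was not tested.

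Among the myosin genes of the 10, the light chain gene MYL9 was lower and the heavy chain gene MYH9 was nearly level. MYL9, a regulatory light chain of smooth muscle and stress fibre myosin, had 237.1, 237.2 and 202.2 in shPKCi, against 483.9, 437.1 and 461.9 in shNT. The groups were clear of each other by 0.882 log2 units. MYL9 averaged 225.5 ± 20.2 in shPKCi and 460.9 ± 23.4 in shNT (SD, n = 3 each), a log2 difference of -1.03 (SE 0.10) or 2.05-fold lower. MYH9, the heavy chain of non-muscle myosin IIA, had 781.8, 819.2 and 762.5 in shPKCi, against 774.2, 866.3 and 804.1 in shNT. Its groups overlapped and its log2 difference was -0.05 (SE 0.09). MYLK, the kinase that phosphorylates the regulatory light chain, had 43.74, 39.46 and 54.41 in shPKCi, against 61.1, 66.38 and 67.19 in shNT. All shPKCi values of MYLK were below the shNT values, and shPKCi replicate 3 came within 0.167 log2 units of them. Its log2 difference was -0.51 (SE 0.13), or 1.43-fold lower, and ran from -0.64 to -0.41 in the fits without 1 array. The shPKCi values of MYLK lay near the shPKCi array medians of 44.91 to 45.68, and their share of background was not measured.

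The tropomyosins, which lie along the actin filament and govern access of myosin and other proteins to it, had small differences of the same sign. TPM1 had 623.5, 541.7 and 549.7 in shPKCi, against 833.4, 602.5 and 840.3 in shNT. The overlap came from shNT replicate 2, which lay below shPKCi replicate 1. The log2 difference of TPM1 was -0.39 (SE 0.14) with all arrays and -0.55 without shNT replicate 2. TPM2 had 360.1, 344.1 and 367.8 in shPKCi, against 463.5, 433.1 and 413.3 in shNT. Its groups did not overlap, with a gap of 0.168 log2 units and a log2 difference of -0.29 (SE 0.09), or 1.22-fold lower.

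The other actin-binding regulators spread from a large difference to a small one. TAGLN, encoding transgelin, a calponin relative also called SM22 alpha, had 36.98, 52.02 and 47.02 in shPKCi, against 153.6, 159.4 and 128.8 in shNT. The lowest shNT value was above the highest shPKCi value by 1.308 log2 units. TAGLN averaged 45.34 ± 7.66 in shPKCi and 147.3 ± 16.3 in shNT (SD, n = 3 each), 3.27-fold lower, with a log2 difference of -1.71 (SE 0.14). The shPKCi values of TAGLN lay near the shPKCi array medians of 44.91 to 45.68. How much of them is background was not measured, which limits the size of the fold. CALD1, encoding caldesmon, which restrains actomyosin until calcium and calmodulin release it, had 1102, 1089 and 1067 in shPKCi, against 1432, 1478 and 1369 in shNT. The replicates of CALD1 were tight, with a gap of 0.312 log2 units between the groups and a log2 difference of -0.39 (SE 0.09), or 1.31-fold lower. CNN1, encoding calponin, a marker of differentiated smooth muscle, had 31.64, 34.01 and 34.49 in shPKCi, against 33.97, 47.71 and 36.61 in shNT. Only shNT replicate 2 stood clearly higher, so that the log2 difference of CNN1, -0.23 (SE 0.13), became -0.08 without that array. CNN1 was dim, at percentile 32.2 of signal over all genes, and could not be told from background.

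**Figure D2:**
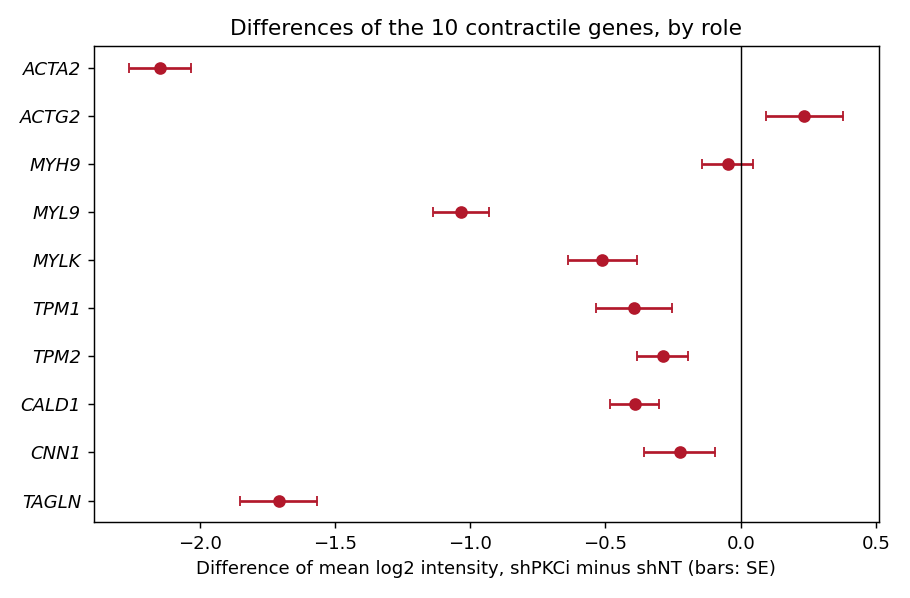
Difference of mean log2 intensity, shPKCi minus shNT (horizontal axis), for the 10 contractile genes from the limma fit of all genes, where bars are standard errors. ACTA2 at -2.15, TAGLN at -1.71 and MYL9 at -1.03 lie apart from the other 7, which run from -0.51 to 0.24.

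Array by array, the mean of the 10 genes stood lower in shPKCi. The mean deviation from each gene's own average over 6 arrays was -0.323, -0.337 and -0.316 log2 units in shPKCi arrays 1 to 3, and 0.304, 0.356 and 0.317 in shNT arrays 1 to 3. ACTA2 and TAGLN deviated most in each of the 6 arrays, whereas for ACTG2, MYH9, CNN1 and TPM1 the deviations of the lines overlapped. Within a line no array was high or low across the group: between 4 and 6 of the 10 genes lay above their own group mean in each array. The replicate spread of ACTA2, at 0.11 log2 units in shPKCi and 0.16 in shNT (SD, n = 3 each), was a small part of its difference, whereas that of ACTG2, at 0.16 in shPKCi and 0.26 in shNT, was about as large as its difference.

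Further markers of smooth muscle did not share the large differences of ACTA2 and TAGLN. They were listed by role, with earlier results of these data known. Of 19 measured genes, 1 rose (NEXN), 1 fell (TGFB1I1) and 17 did not pass limma's test at an adjusted p of 0.05. The share was 5.26% each way, beside 9.55% of all genes higher and 8.95% lower. The list median was -0.14, against -0.02 over all genes, with 14 negative and 5 positive signs. NEXN, encoding the actin-binding protein nexilin, had 321.6, 306.6 and 291.2 in shPKCi, against 176.9, 117.0 and 167.4 in shNT, a rise of 1.02 on the log2 scale (SE 0.15, limma adjusted p = 0.00158). TGFB1I1, the focal adhesion adaptor Hic-5, fell by 0.46 (limma adjusted p = 0.0433), a call lost in 4 of the 6 fits without 1 array (each shPKCi array and shNT replicate 1), where none of the list fell. None of 3 genes that define mature smooth muscle passed. MYH11, its myosin heavy chain, had 35.7, 34.85 and 33.56 in shPKCi, against 35.22, 42.66 and 40.62 in shNT (log2 fold change -0.18, limma adjusted p = 0.287). In signal over all genes MYH11 lay at percentile 32.7, DES at 56.3 and SMTN at 65.1. The signal of MYH11 could not be told from background. For DES, encoding desmin, the log2 fold change was -0.01 (adjusted p = 0.964), and for SMTN, encoding smoothelin, it was 0.29 (adjusted p = 0.107, and adjusted p = 0.0164 without shNT replicate 2, where 2 genes of the list rose).

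SRF itself was not called different. Of 18 measured genes, SRF with its cofactors and targets, 4 fell (22.2%) and 0 rose, beside 8.95% and 9.55% of all genes. SRF had 252.7, 242.8 and 282.2 in shPKCi, against 218, 263.7 and 224.6 in shNT (log2 fold change 0.14, limma adjusted p = 0.466). For the cofactor gene MRTFB the log2 fold change was -0.17 (adjusted p = 0.38). MYOCD, encoding myocardin, the cofactor of differentiated smooth muscle, had 0.25 (adjusted p = 0.151, and adjusted p = 0.0238 without shNT replicate 2) at the 20.4th percentile of signal over all genes. The 4 that fell were CCN2, EGR1, ELK3 and FOS. CCN2, encoding connective tissue growth factor, had 234.2, 261.6 and 243.8 in shPKCi, against 511, 459.5 and 491 in shNT, and fell by 0.98 (SE 0.10, adjusted p = 0.000154). EGR1 and FOS, immediate early transcription factor genes with SRF sites, fell by 0.89 (adjusted p = 0.000357) and fell by 0.62 (adjusted p = 0.00649), and ELK3, an SRF partner of the ternary complex factor family, fell by 0.62 (adjusted p = 0.00316). None of the 18 rose by limma's adjusted p. At limma's unadjusted p under 0.05, 6 were lower and 1 higher, beside 2709 and 2764 of all 18404 genes. The median of the list was -0.18. MRTFA and EGR2 were not analysed here.

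Relatives of the actins, tropomyosins, calponin and transgelin went both ways. Of 16 measured, 1 rose (TAGLN3) and 3 fell (TMOD2, SVIL and TMOD1), with a median of -0.05. The shares were 6.25% and 18.8%, beside 9.55% and 8.95% of all genes. TMOD2, a tropomodulin that caps the pointed end of actin filaments, had 36.45, 36.21 and 38.75 in shPKCi, against 89.62, 63.75 and 92.89 in shNT, and fell by 1.12 (SE 0.14, limma adjusted p = 0.000679). SVIL, encoding the actin- and myosin-binding protein supervillin, fell by 0.37 (adjusted p = 0.0275) and TMOD1 by 0.33 (adjusted p = 0.0458), while TAGLN3 rose by 0.43 (adjusted p = 0.0198). The calls of TMOD1, SVIL and TAGLN3 were lost in 6, 4 and 3 of the 6 fits without 1 array. Of the 16, 1 fell without any one shPKCi array or shNT replicate 3, 0 rose without shPKCi replicate 1 or 3 or shNT replicate 1, and 2 rose without shNT replicate 2. The cytoplasmic and striated muscle actins, named after their values were seen, did not pass, with log2 fold changes of 0.08 for ACTB, -0.22 for ACTG1 and -0.05 for ACTA1 (adjusted p = 0.629, 0.136 and 0.799). TPM4, also named afterwards, had -0.03 (adjusted p = 0.923).

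Of 27 measured genes of myosin II and the enzymes around its light chain, 4 fell and 0 rose by limma. The share that fell was 14.8%, beside 8.95% of all genes, and 9.55% of all genes rose. At limma's unadjusted p under 0.05, 8 were lower and 0 higher, beside 2709 and 2764 of all 18404 genes. PPP1R14C, an inhibitor of protein phosphatase 1, had 143.4, 152.5 and 139.7 in shPKCi, against 269.3, 247.9 and 268.8 in shNT, and fell by 0.85 (SE 0.09, adjusted p = 0.000317). The essential light chain gene MYL6B, the kinase gene DAPK1 and the kinase gene CDC42BPB fell by 0.40, 0.44 and 0.35 (adjusted p = 0.0316, 0.0316 and 0.0451), and lost the call in 4, 4 and 5 of the 6 fits without 1 array. The number that fell was 1 without shPKCi replicate 2 or 3 and 2 without shPKCi replicate 1 or shNT replicate 1. Named after their values were seen, the non-muscle heavy chain gene MYH10 gave -0.24 on the log2 scale (adjusted p = 0.104), and the light chain genes MYL6, MYL12A and MYL12B had -0.15, -0.21 and 0.00 (adjusted p = 0.356, 0.338 and 0.988). Without shNT replicate 2, MYL12A had -0.35 (limma adjusted p = 0.0226). RHOA, ROCK1 and ROCK2, of the pathway that keeps the light chain phosphorylated, had -0.15, -0.07 and 0.10 (adjusted p = 0.336, 0.744 and 0.547). The calmodulin genes, PPP1R14B and ARHGEF2 were not analysed here.

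Stress fibre crosslinkers and focal adhesion proteins fell in 8 of 28 measured genes and rose in 0 by limma. The share that fell was 28.6%, beside 8.95% of all genes, and 9.55% of all genes rose. At limma's unadjusted p under 0.05, 11 were lower and 3 higher, beside 2709 and 2764 of all 18404 genes. The list median was -0.06. LPP, a LIM protein of focal adhesions, had 301.7, 322.1 and 313 in shPKCi, against 449.5, 653.8 and 491.9 in shNT, and fell by 0.75 (SE 0.14, adjusted p = 0.00479). PALLD, encoding the filament crosslinker palladin, fell by 0.57 (adjusted p = 0.0064). FERMT2, encoding the integrin activator kindlin-2, fell by 0.60 (adjusted p = 0.00651), and PDLIM5 fell by 0.40 (adjusted p = 0.0141), a call lost in 3 of the 6 fits without 1 array (shPKCi replicates 1 and 2 and shNT replicate 3). The number that fell was 3 without shPKCi replicate 2 and 4 without shPKCi replicate 1, shPKCi replicate 3 or shNT replicate 3. The filamin genes were not analysed here. Over the 5 lists together, with each gene counted once, 20 of 105 fell (19%) and 2 rose (1.9%), beside 8.95% and 9.55% of all genes. In the fits without 1 array 9 to 19 of the 105 fell, fewest without shPKCi replicate 2, with 13 or fewer also without shPKCi replicate 1 or 3 or shNT replicate 3. The number that rose was 5 without shNT replicate 2 and 1 without shNT replicate 1, shPKCi replicate 1 or shPKCi replicate 3.

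**Figure D3:**
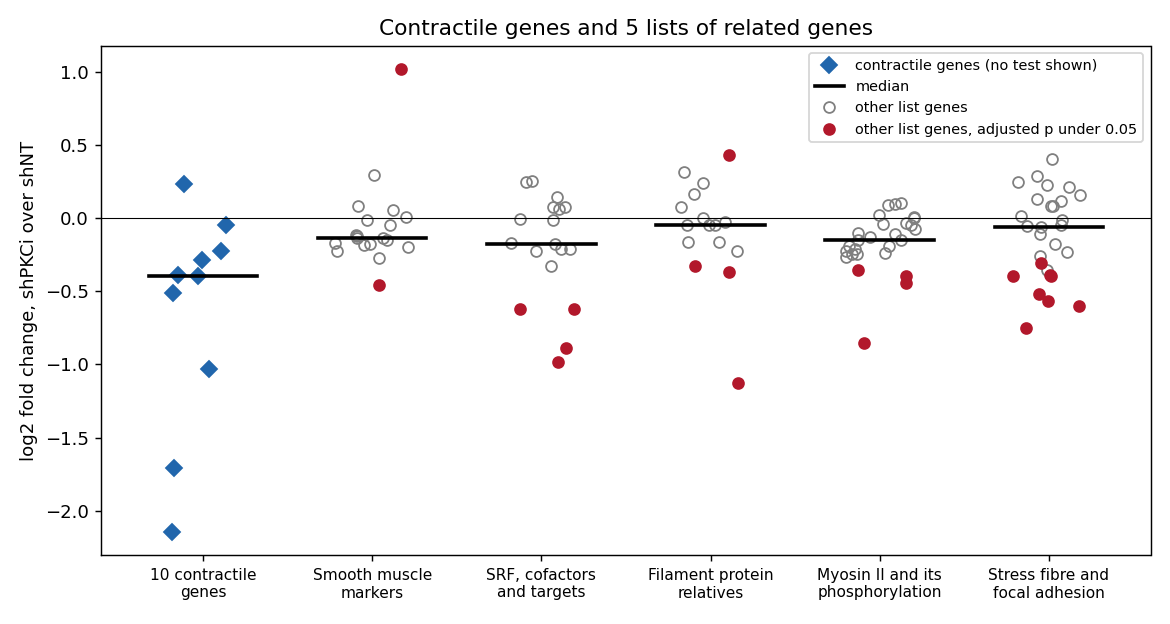
log2 fold change of shPKCi over shNT (vertical axis) for the 10 contractile genes (blue diamonds, no test shown) and for 5 lists of related genes, where filled red circles passed limma's adjusted p of 0.05, open circles did not, and black bars are medians. The median is -0.39 for the contractile genes and between -0.18 and -0.05 for the 5 lists, and NEXN at 1.02 is the highest point.

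As a description added after the values were seen, the genes whose windows hold an exact CArG box were counted, MYLK and ACTG2 of the contractile genes included. Of 242 such genes on the arrays, 37 were lower (15.3%) and 18 higher (7.44%) in shPKCi at limma's adjusted p of 0.05, beside 9.36% and 10.2% of the 14230 genes with a window. In the fits without 1 array the numbers were 26 to 36 lower and 6 to 20 higher, with fewest higher without shPKCi replicate 3. The median log2 fold change of these 242 genes was -0.04, against -0.02 for the genes with a window.

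Markers of other cell types were read beside these results. A sum of linear intensities is set mostly by its brightest genes and does not stand for each gene of a list. The summed intensity of 5 defining smooth muscle markers was 314.4 to 319 in the shPKCi arrays and 282 to 342.4 in the shNT arrays, so the groups overlapped. None of the 5 passed limma's test, and 1, SMTN, passed without shNT replicate 2. At limma's unadjusted p under 0.05, 1 was higher and 0 were lower. For 11 fibroblast markers the sum was 1186 to 1239 in shPKCi and 1658 to 1741 in shNT. FAP alone had 250.5, 290.6 and 276.6 in shPKCi, against 570.1, 480.9 and 650.5 in shNT. The sign was negative for 10 of the 11. FAP and COL1A1, named after their values were seen, fell by 1.05 and 0.49 (adjusted p = 0.000501 and 0.0244), none rose, and 4 of the 11 lay in the lowest 25% of genes by signal. COL1A1 lost its call without shPKCi replicate 2 or 3, with a highest adjusted p of 0.095 by limma. Basal epithelial markers summed to 10530 to 10760 in shPKCi and 11580 to 12800 in shNT, and 3 of 6 (CDH3, KRT14 and KRT15) fell. KRT14 lost its call in 5 and KRT15 in 4 of the 6 fits without 1 array. The epithelial identity of the line was visible in KRT5 and CDH1, at the 99.6th and 98.4th percentile of signal over all genes, and both were called lower only without shNT replicate 2 among the fits without 1 array (adjusted p = 0.0333 and 0.0268). Genes of the marker lists were named after their values were seen, MYH11, DES and SMTN apart. The sum of 4 luminal epithelial markers was 2572 to 2664 in shPKCi and 1844 to 2523 in shNT, higher in shPKCi with no overlap. Most of that sum was KRT8 (1209 to 1290 in shPKCi) and KRT18 (1262 to 1314 in shPKCi). Of the 4 genes, 2 had a negative sign and 2 a positive one. By limma 1 of the 4 fell (ACP3, by 1.02, adjusted p = 0.00127) and 0 rose, with 1 higher and 1 lower at an unadjusted p under 0.05. The luminal keratin genes KRT8 and KRT18 had log2 fold changes of 0.34 and 0.27 (adjusted p = 0.0624 and 0.218), and both rose without shNT replicate 2 (adjusted p = 0.00698 and 0.0361). The sums of endothelial, blood cell and skeletal muscle markers overlapped between the lines. Endothelial markers fell in 1 of 5 (KDR) and skeletal muscle markers in 0 of 6, also at an unadjusted p under 0.05, and 1 of 4 blood cell markers rose (CD3D). The calls of KDR and CD3D were each lost in 4 of the 6 fits without 1 array. All 5 endothelial, 3 of the 4 blood cell and 2 of the 6 skeletal muscle markers lay in the lowest 25% of genes by signal. By limma 8.95% of all genes fell and 9.55% rose, beside the marker counts of this paragraph. At limma's unadjusted p under 0.05, 2709 of all 18404 genes were lower and 2764 higher. RMA gives a value above 0 to every probe set, so no marker could be read as absent. The part of these shifts in the values of the contractile genes was not tested, and in RNA from a whole culture fewer cells of a type cannot be told apart from less RNA per cell.

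The genes outside the 10 with profiles most like ACTA2 and MYL9 over the 6 arrays were in none of the companion lists. The contractile genes themselves were left out of this search, so none of them could appear. Likeness was the root mean square difference of log2 signals, each gene centred on its own mean. Nearest to ACTA2 were C1S, a complement protease gene, at 0.111 log2 units, CPE, encoding carboxypeptidase E, at 0.117, the insulin-like growth factor binding protein gene IGFBP3 at 0.126, the calcium sensor gene VSNL1 at 0.135 and CLCA2 at 0.14. C1S had 35.75, 36.62 and 36.14 in shPKCi, against 163.8, 166.7 and 199.2 in shNT, and these 5 genes had log2 fold changes between -2.28 and -1.96. Nearest to MYL9 were HSD17B8 at 0.047, the urea cycle enzyme gene CPS1 at 0.065, SPOCK3 at 0.066, CCDC92 at 0.07 and the metalloproteinase inhibitor gene TIMP2 at 0.076, with log2 fold changes between -1.12 and -0.98. A profile of 6 arrays in 2 groups is set mostly by the difference between the lines, so that likeness here is chiefly a like fold change.

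**Figure D4:**
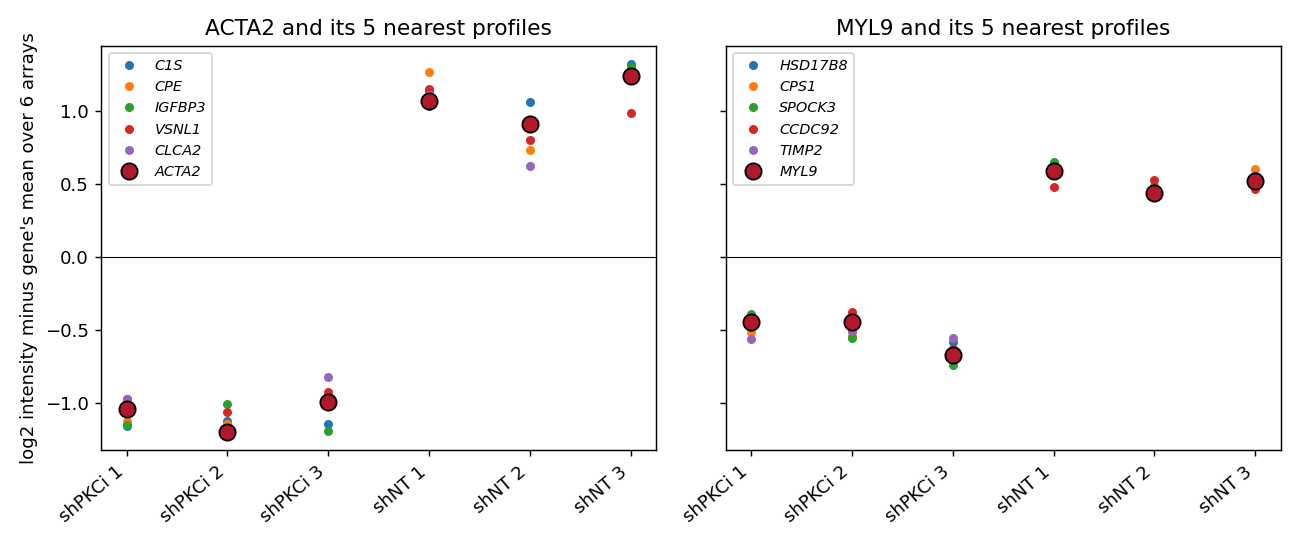
log2 intensity minus each gene's own mean over the 6 arrays (vertical axis) for ACTA2 and its 5 nearest profiles (left) and MYL9 and its 5 nearest (right), by array, with shPKCi before shNT. In both panels every gene is below 0 in the 3 shPKCi arrays and above 0 in the 3 shNT arrays. The other contractile genes were left out of the search for near profiles.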

How the data were processed

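The authors deposited probe set intensities on a linear scale, made with RMA per the submitters' processing notes. A software version or a genome build is not given in the sources used here. Intensities were transformed to log2. Gene names came from the platform annotation: 19158 probe sets had 1 symbol, 1388 had several and 11775 were not listed. For the 637 genes with several probe sets the one of highest mean signal was used. All 18404 genes were fitted on the 6 arrays with limma 3.58.1 (lmFit, eBayes, no covariate) in R 4.3.3, with p-values adjusted by Benjamini-Hochberg over all genes and a threshold of 0.05. The median standard error was 0.114 log2 units. No filter on low signal and no detection calls were used, so dim genes cannot be told from background. The same limit holds for the shPKCi values of genes such as TAGLN, MYLK, TMOD2 and C1S. The number of arrays limits the precision. On 20 simulated data sets of 18404 genes, 99.7% of 200 genes changed 2-fold were recovered and 6.17% of calls were false. The simulated noise was normal, independent between genes and arrays, and had the spread estimated by limma. It held no array that differed like shNT replicate 2, fewer changed genes than were called here, and no changes smaller than 2-fold. The percentages therefore describe that setting and not the calls on these arrays.

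The contractile genes, the 5 companion lists, the marker lists (basal and luminal epithelium, smooth muscle, fibroblast, endothelium, blood cells, skeletal muscle) and the rules were chosen with earlier results of these data known. Named genes were the 10, PRKCI, SRF, MYOCD, MRTFA, MRTFB, MYH11, DES and SMTN, up to 4 passing genes of smallest adjusted p per companion list, and the 5 nearest profiles of ACTA2 and of MYL9 outside the 10. Other genes were named after their values were seen. Alternatives comprised fits with a replicate block and without each single array, centring on array medians, cyclic loess, genes above the median signal, the mean of all probe sets of a gene, and a trended robust variance.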

Additional observations from a re-analysis of the deposited data

How the results depend on the processing

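The log2 differences of the 10 contractile genes kept their sign in every alternative that held the gene, and those of ACTA2, TAGLN and MYL9 ran from -2.23 to -2.06, from -1.81 to -1.57 and from -1.10 to -0.96. CNN1 and MYLK were not among the genes above the median signal. The replicate block, that signal filter, the mean of probe sets and the trended variance could not change a difference. The groups were equal in size and no contractile gene had several probe sets. Cyclic loess moved TPM2, CALD1 and MYH9 by more than their replicate SD, to -0.36, -0.49 and -0.13.

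With a replicate block, 1537 genes were higher and 1441 lower, and of the 10 contractile genes 5 were lower. The titles' replicate numbers were not treated as pairs in the main fit. The deviations of same-numbered arrays correlated at 0.121, -0.058 and -0.183, and not every array correlated best with its own number. With deviations taken within groups of 3 arrays, such correlations cannot show whether the numbers pair the samples. Under the block 1 filament protein relative, 1 myosin gene and 13 of the 105 genes of all 5 lists fell. Among genes above the median signal 0 relatives rose and 1 fell, and 1 stress fibre gene rose. Cyclic loess gave 7 lower myosin genes. Without 1 array, all genes gave 997 to 1935 higher and 1048 to 1959 lower, the contractile genes 0 higher and 3 to 6 lower, and non-overlapping contractile probe sets 0 to 1 higher and 6 to 7 lower. The same fits gave 1 to 2 smooth muscle markers higher and 0 to 1 lower, 0 to 1 SRF genes higher and 4 lower, 0 to 2 relatives higher and 1 to 2 lower, 1 to 3 myosin genes lower, 3 to 9 stress fibre genes lower, 1 to 5 genes of the 5 lists together higher and 9 to 19 lower, and 6 to 20 CArG box genes higher and 26 to 36 lower. The counts over the 5 lists together and over CArG box genes were added after the data were seen. The cause of these shifts was not tested. Signal over background could not be read for dim genes such as MYOCD.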
